A study of Caenorhabditis elegans with 2 samples.

Results

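The nuclear genome of Caenorhabditis elegans carries 612 annotated tRNA genes, of which 336 lie on the 5 autosomes and 276 on the X chromosome. The account below concerns the 336 autosomal genes, taken as every gene of biotype tRNA in the WBcel235 annotation on an autosome. Binding near them was read from ChIP-seq of ZFP-2, a C2H2 zinc finger protein. The worms were hermaphrodites of strain OP534, which carries the unc-119(tm4063) III mutation and the integrated transgene wgIs534, and stably expressed ZFP-2 fused at the C terminus to GFP and FLAG. Whole worms were collected as L4 larvae 52 hours after a starved L1 arrest that followed bleaching, chromatin was sheared by sonication, and the fusion protein was precipitated with an anti-GFP antibody. The study has 1 group of 2 biological replicates, so no condition could be set against another. Whether the transgene is expressed in the same cells and at the same level as the endogenous gene is not given in the sources used here, and no untagged or input library was used here. The deposited lists held 660 peaks after thresholding, 14658 from the pooled replicates, 18200 from replicate 1 and 17770 from replicate 2, the last 3 with background calls included. The label of the thresholded list names IDR, a measure of how reproducible peaks are between replicates, as its threshold. Its peaks were also the 660 strongest of the pooled list. A single list gives no spread between replicates, so each replicate's own 660 strongest peaks were set beside it. Read depth is unknown.

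tRNA genes are transcribed by RNA polymerase III from a promoter that lies inside the gene. The factor TFIIIC recognises 2 short conserved stretches of the gene, the A box near its 5′ end and the B box in the part that encodes the T loop, and brings in TFIIIB upstream of the start, which recruits the polymerase. In worms these genes are scattered over all chromosomes, often singly and often within introns of protein-coding genes, and many occur as identical copies.

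The genes shown first are those with the strongest peak, a pair that shares 1 summit, and 3 whose sequence is useful for the comparisons below. Each is written in the direction of transcription from the RefSeq genome sequence of WBcel235, which is ce11, with letters that match the A box and the B box in capitals. The B box was searched as GTTCNANNC and the A box by its consensus, on the strand of the gene. T23F1.t1 encodes a lysine tRNA at chrV:15465086-15465158 on the plus strand, and T23F1.t2 a proline tRNA at chrV:15465225-15465296 on the minus strand. W09G10.t3 encodes a threonine tRNA at chrII:3519086-3519157 on the minus strand, and F57F5.t1 an isoleucine tRNA at chrV:12002176-12002260 on the plus strand. K12H4.t1, a proline tRNA gene at chrIII:8069405-8069476 on the plus strand, lacks the letters of the B box. K09C6.t1, an alanine tRNA gene at chrV:857325-857396 on the plus strand, lacks those of the A box.
T23F1.t1: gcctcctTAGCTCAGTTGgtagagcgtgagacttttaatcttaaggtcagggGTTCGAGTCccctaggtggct
T23F1.t2: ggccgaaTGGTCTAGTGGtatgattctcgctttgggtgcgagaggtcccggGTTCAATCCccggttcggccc
W09G10.t3: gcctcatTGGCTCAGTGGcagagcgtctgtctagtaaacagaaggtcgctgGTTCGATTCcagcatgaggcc
F57F5.t1: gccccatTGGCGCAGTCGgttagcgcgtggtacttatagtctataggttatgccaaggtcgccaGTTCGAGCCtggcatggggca
K12H4.t1: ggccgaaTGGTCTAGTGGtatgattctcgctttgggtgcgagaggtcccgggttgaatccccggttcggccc
K09C6.t1: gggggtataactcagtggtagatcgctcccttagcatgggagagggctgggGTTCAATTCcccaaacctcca

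Most autosomal tRNA genes had a summit of the pooled list close by, and for most of them it was too weak to pass the threshold. The pooled and replicate lists include background calls, and no control library was used here. A summit below the threshold therefore cannot be told apart from background. A tRNA gene counted as bound where the summit, the highest point of a peak, lay in the gene or within 250 bp of it. In the thresholded list 54 of the 336 genes were bound (16.1%, exact 95% interval 12.3 to 20.4%), where 0.344% of the 144322 autosomal windows of 572 bp, the median length of the gene windows, held such a summit. In the pooled list 249 of 336 were bound (74.1%, 69.1 to 78.7%), against 8.03% of the same windows. For 47 of these genes the best summit ranked only between 5001 and 14658. The strongest 660 peaks of replicate 1 reached 44 genes (13.1%, against 0.349% of windows) and those of replicate 2 reached 63 (18.8%, against 0.351%). Both reached the same 27 genes (8.04%, against 0.222%). In the full replicate lists 200 genes had a summit in both (59.5%, 54.1 to 64.8%, against 3.31% of windows), 34 in replicate 1 only, 36 in replicate 2 only and 66 in neither. Windows of the same length around the 25625 annotated 5′ ends of autosomal protein-coding transcripts held a thresholded summit in 1.45% and a pooled summit in 14.5%. These shares describe the lists, and the intervals treat neighbouring genes as independent, which they are not.

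The summits gathered within 200 bp of the middle of the gene, inside the gene body and on either side of it. Around the 235 tRNA genes with no other tRNA gene within 1000 bp, the 4 bins of 100 bp nearest the middle of the gene held 187 pooled summits, from 12 to 94 per bin. The 20 bins more than 1000 bp away held 81, from 1 to 7 per bin. In the thresholded list the 4 central bins held 33 summits and the 20 outer bins 4. Relative to the gene's 5′ end, in the direction of transcription, the median summit of the 54 bound genes lay at 15 bp, with an interquartile range of -20 to 64.5 bp. Of these 54 genes, 22 had the summit upstream, 20 inside the gene and 12 downstream. For the 33 bound lone genes these counts were 15, 15 and 3. The flanks counted, 250 bp on each side, are longer than the genes, whose median length is 72 bp, so the counts are not densities. The median position was 33.5 bp over the genes reached by the strongest peaks of replicate 1, and 5 bp over those of replicate 2. For the 40 summits near a single tRNA gene it was 7.5 bp. All 47 peaks behind these calls had the same width, 436 bp, which is longer than a tRNA gene, and the summit is the only finer position.

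**Figure D1:**
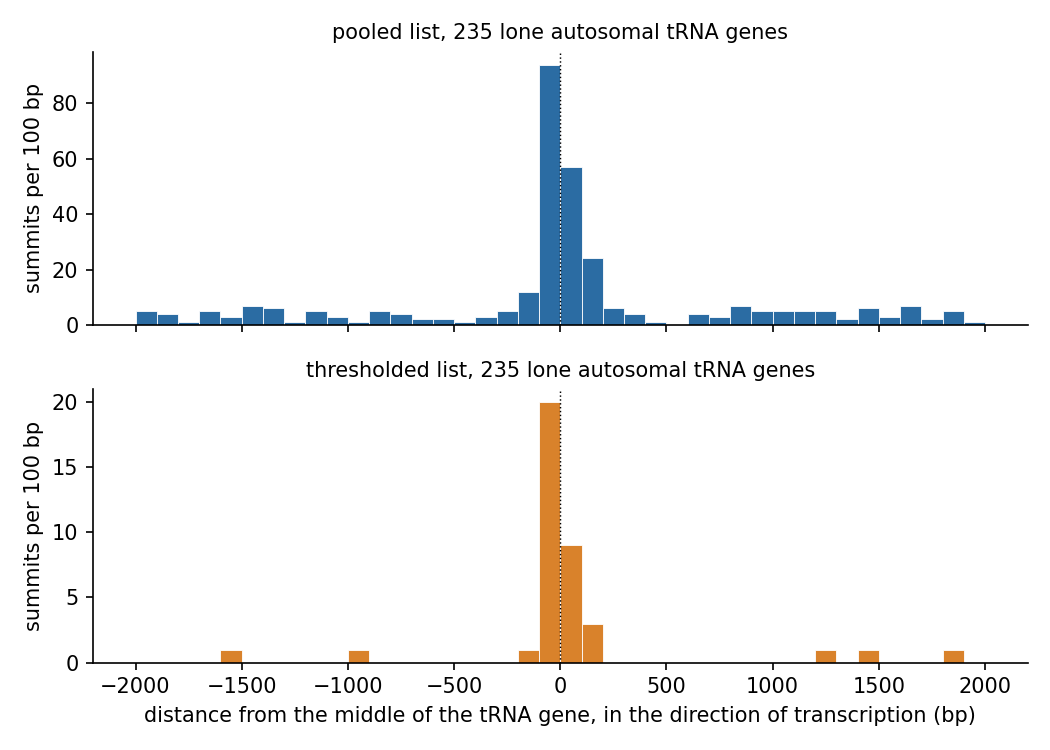
Number of summits per 100 bp (vertical axis) against distance in bp from the middle of 235 autosomal tRNA genes with no other tRNA gene within 1000 bp, in the direction of transcription, in the pooled list (upper panel) and the thresholded list (lower panel). The 4 central bins hold 187 pooled and 33 thresholded summits, and the 20 bins beyond 1000 bp hold 81 and 4.

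The peaks at autosomal tRNA genes stood in the weaker part of the thresholded list. The pooled list was also divided by signal into 2 equal parts, and 223 of the 249 genes with a pooled summit had one in the stronger part. The share of windows reached by that part was not counted. As 45 members had 2 or more pooled summits, any of which could count, the 223 is a description only. Peak signal, a value of the authors, was compared only within a list. The 47 distinct thresholded summits near autosomal tRNA genes had a median signal of 94.6, with a range of 83.8 to 195, and ranks between 142 and 660 with a median of 505. The 58 near X tRNA genes had a median of 106 (84.5 to 237), and the other 537 nuclear summits a median of 120 (83.8 to 4889). None of the 83 nuclear summits among the 100 strongest peaks of the pooled list lay near a member. Of the next nuclear summits, 8 of 229 down to rank 330 did (3.49%), and 39 of 330 from there to rank 660 (11.8%, exact 95% interval 8.54 to 15.8%). The share was 36 of 340 down to rank 1000 (10.6%, 7.53 to 14.4%), 65 of 1000 down to rank 2000 (6.50%, 5.05 to 8.21%) and 59 of 3000 down to rank 5000 (1.97%). Below that it was 63 of 9658 (0.652%). The threshold at rank 660 thus ran through the ranks where the members' summits were densest. Just inside it stood Y39B6A.t10, a glutamate tRNA gene, at signal 83.8 and rank 660, K04C2.t3, a lysine tRNA gene, at 83.9, and F14B4.t2, a proline tRNA gene, at 85.5. The 3 members with the highest pooled signal that were not in the thresholded list were F32B4.t1 (cysteine) at 82.6, Y104H12A.t1 (glutamate) at 81.5 and K06A4.t1 (alanine) at 81.3.

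The replicates placed the members at different depths of their lists. Of the 54 bound genes, 34 lay near a summit among the strongest 660 of replicate 1, 47 near one among those of replicate 2, and 27 near both. None lay outside both. Their best summit ranked between 167 and 3479 in replicate 1, with a median of 588, and between 119 and 1015 in replicate 2, with a median of 449. The rank was better in replicate 2 for 34 genes, better in replicate 1 for 19 and equal for 1. Replicate 1 signals of these genes ran from 20.9 to 78.0 with a median of 40.8, and replicate 2 signals from 41.2 to 119 with a median of 59.5. Over the 200 members with a summit in both full lists, the ranks had a Spearman rho of 0.507 and the log2 signals a Pearson r of 0.531. These are descriptions across genes that share 2 libraries, and genes of 1 cluster can share a summit.

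**Figure D2:**
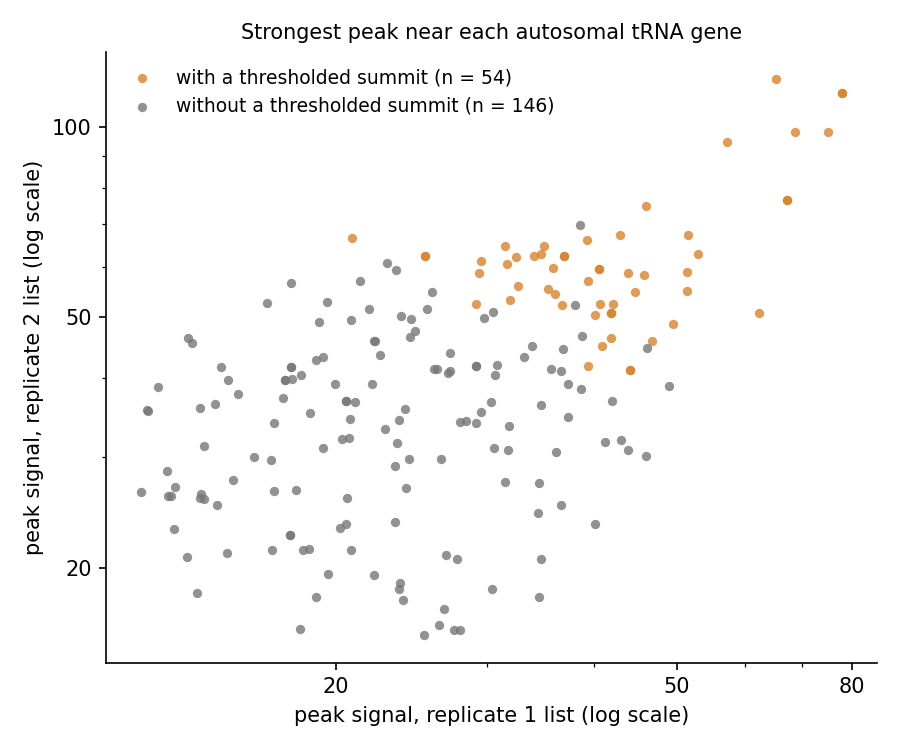
Authors' peak signal of the strongest summit within 250 bp of each autosomal tRNA gene in the replicate 1 list (horizontal, log scale) and in the replicate 2 list (vertical, log scale), for the 200 genes with a summit in both. Orange points are the 54 genes with a thresholded summit and grey points the other genes; the orange points have replicate 2 signals of at least 41.2 and spread over replicate 1 signals between 20.9 and 78.0.

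The highest signal belonged to the pair T23F1.t1 and T23F1.t2, whose genes point towards each other and share 1 summit with signal 195 and rank 142. It had signal 78.0 in replicate 1 and 113 in replicate 2, at ranks 167 and 133, so both lists held it near the top of the members. The pair is intergenic and lies within the promoter windows of pqn-71 and rocf-1, a window being 1000 bp upstream to 200 bp downstream of a coding 5′ end. B0350.t1, a lysine tRNA gene in intergenic sequence at chrIV:5967160-5967232, had signal 184, with 65.3 in replicate 1 and 119 in replicate 2. F57F5.t1, the isoleucine tRNA gene shown above, had signal 150, with 68.7 and 98.2 in replicates 1 and 2. It lies in the promoter windows of gcy-33, which encodes a guanylate cyclase, and cpr-9, which encodes a cathepsin B-like protease. The pair W09G10.t3 and W09G10.t2, coding for threonine and lysine tRNAs near the C-type lectin gene clec-126, shared a summit of signal 144, with 67.2 in replicate 1 and 76.5 in replicate 2. Y7A9D.t2, an alanine tRNA gene, had signal 121, with 51.5 and 67.3. All of these ranked 356 or better in replicate 1 and 324 or better in replicate 2.

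Introns held 3 of the 10 members with the highest signals. F47G6.t1, an arginine tRNA gene at chrI:1447138-1447210 in an intron of spe-15, had signal 166, with 75.2 in replicate 1 and 98.0 in replicate 2. Y82E9BR.t1, a glycine tRNA gene at chrIII:1424491-1424562, lies in an intron of lelo-2 on the opposite strand and had signal 151, with 57.2 and 94.5. C14B9.t2, a leucine tRNA gene of 122 bp in an intron of C14B9.3, had signal 119, with 46.1 and 74.98. By amino acid, the highest other members were Y22D7AL.t4 for glutamate (signal 102), K04A8.t3 for cysteine in an intron of the potassium channel gene twk-10 (99.0), ZC455.t1 for serine (98.2) and F41A4.t1 for aspartate (93.1). The 3 genes K04C2.t1, K04C2.t2 and K04C2.t3 stand close together in introns of brd-1, the worm homologue of BARD1, and all 3 were bound. K04C2.t1 and K04C2.t2, both for glycine, shared a summit of signal 95.8 that ranked 403 in replicate 2 and 1823 in replicate 1. One further gene, chosen after its values were seen, is sup-5, the tryptophan tRNA gene known for its amber suppressor alleles, which lies in an intron of fli-1 and had signal 96.2, with 39.4 in replicate 1 and 57.0 in replicate 2.

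Bound genes were found in introns and between genes alike. Of 188 genes within introns, 29 were bound (15.4%, exact 95% interval 10.6 to 21.4%), and of 139 intergenic genes 25 (18.0%, 11.99 to 25.4%). The pooled list reached 142 of the intronic and 101 of the intergenic genes. In introns, 16 of 110 genes on the strand of the host and 13 of 77 on the opposite strand were bound. None of the 9 genes overlapping an exon was bound in the thresholded list, for which the interval reaches 33.6%, while 6 of these 9 had a pooled summit. Among those 6 were W02G9.t2, a threonine tRNA gene, with pooled signal 78.8, and Y69A2AR.t2, a glutamate tRNA gene overlapping an exon of the spindle checkpoint gene mdf-2, with 78.7.

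The share was higher near coding promoters in the thresholded list, with overlapping intervals. Of the 95 tRNA genes within a coding promoter window 20 were bound (21.1%, 13.4 to 30.6%), and of the 241 outside such windows 34 (14.1%, 9.97 to 19.2%). The strongest peaks of replicate 1 reached 15 of the 95 and 29 of the 241, and those of replicate 2 reached 20 and 43. In a pooled list cut at 2 times as many peaks as the thresholded list the order turned, with 33 of 95 (34.7%) and 92 of 241 (38.2%). Genes with another tRNA gene within 1000 bp were bound in 21 of 101 cases (20.8%, 13.4 to 30.01%), and lone genes in 33 of 235 (14.04%, 9.87 to 19.2%). The strongest peaks of replicate 1 reached 14 of the 101 (13.9%) and 30 of the 235 (12.8%), and those of replicate 2 reached 23 (22.8%) and 40 (17.02%). A summit can count for both genes of a pair, as 7 of the 47 summits did. Joined within 1000 bp, the members form 281 loci, of which 46 hold 2 or more genes. Of the 39 loci of 2 genes 9 had a bound gene, as did 3 of the 5 loci of 3 genes and 1 of the 2 loci of 4 genes. The differences by place, promoter and clustering were not tested.

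**Figure D3:**
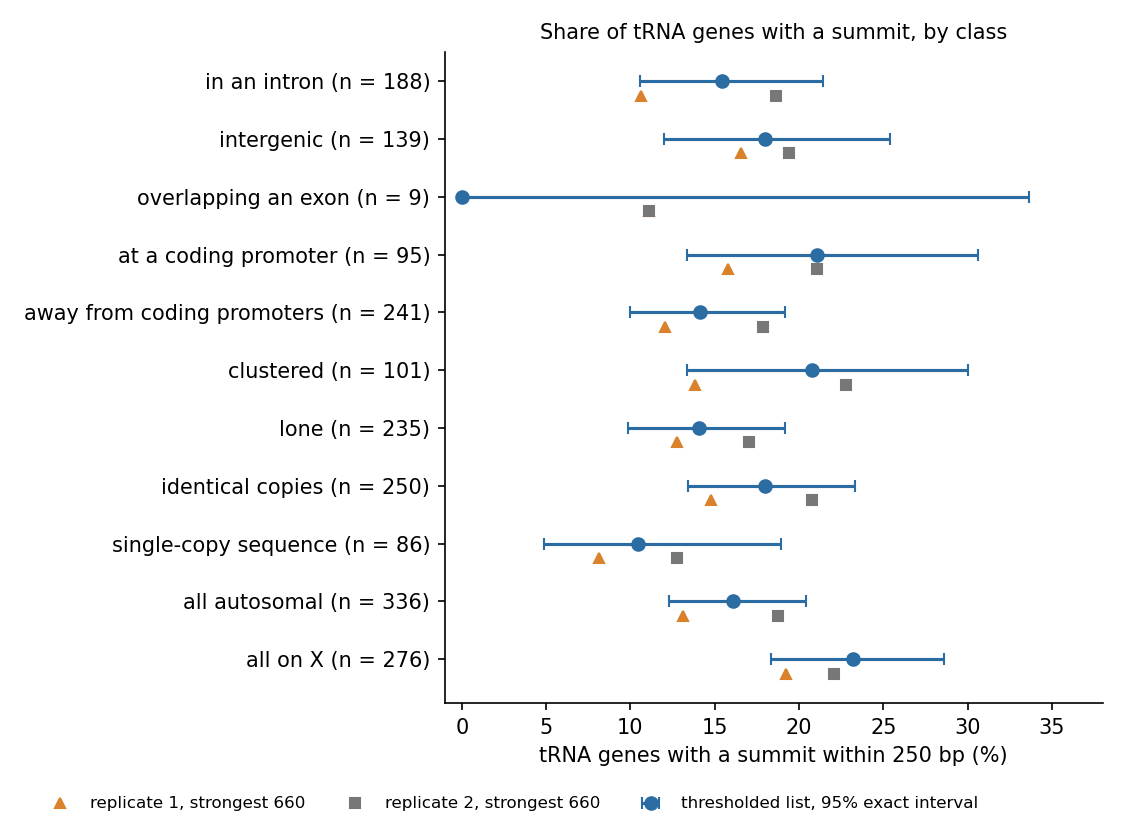
Percent of tRNA genes with a summit within 250 bp (horizontal axis) by class, with the number of genes in each class. Circles with bars give the thresholded list with its exact 95% interval, triangles the 660 strongest peaks of replicate 1 and squares those of replicate 2; the intervals of intronic and intergenic genes overlap, and the share is 16.1% over all autosomal genes and 23.2% over all genes on X.

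Binding was spread over most amino acids. The thresholded list held genes for 17 of the 20 standard amino acids, with 7 of 35 glycine, 7 of 28 lysine, 5 of 17 arginine, 4 of 21 alanine and 4 of 22 leucine genes. Of the 6 cysteine genes 3 were bound, and all 6 had a pooled summit. These counts moved with the library. The strongest 660 peaks of replicate 1 reached 2 glycine, 0 cysteine, 2 aspartate and 2 isoleucine genes, and those of replicate 2 reached 6, 5, 6 and 5, where the thresholded list reached 7, 3, 3 and 3. For lysine they were 7 in replicate 1 and 8 in replicate 2, and for arginine 5 in each. No asparagine gene of 14, tyrosine gene of 11 or valine gene of 17 was bound in the thresholded list, yet 10, 8 and 12 of them had a pooled summit, and replicate 1's strongest peaks reached 1 valine gene. In the pooled list the share was lowest for histidine, with 5 of 11 genes, and isoleucine, with 8 of 16. The single gene annotated for selenocysteine, K11H12.t1, which lacks the A box letters, had a pooled summit of signal 62.0 at rank 1250, with 28.4 in replicate 1 and 34.1 in replicate 2. With 6 to 35 genes per amino acid the shares are imprecise, and their order was not tested.

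**Figure D4:**
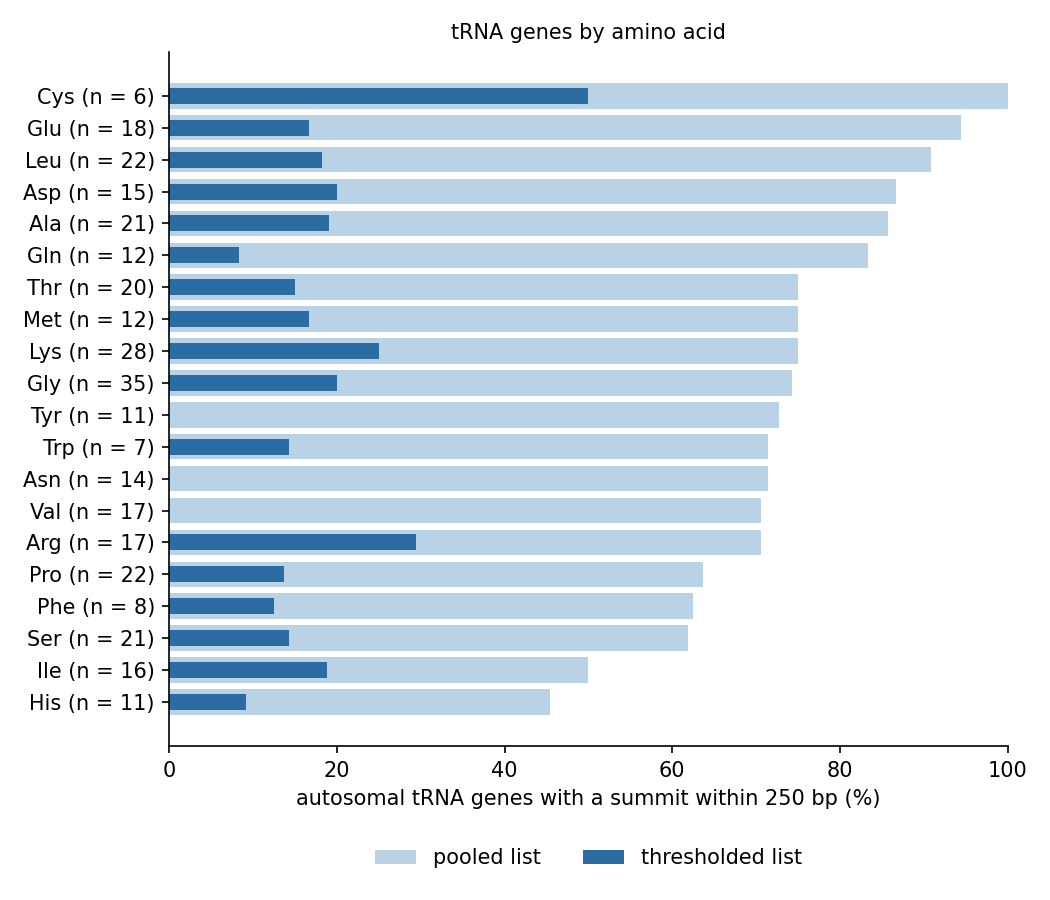
Percent of autosomal tRNA genes with a summit within 250 bp (horizontal axis) by amino acid, with the number of genes; light bars give the pooled list and dark bars the thresholded list. All 6 cysteine genes have a pooled summit and 3 a thresholded one, while asparagine, tyrosine and valine genes have pooled summits only.

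Genes with the internal promoter letters made up nearly all of the members. The A box was found in 322 of 336 (95.8%, against 31.3% of the autosomal windows of 572 bp on either strand) and the B box in 319 (94.9%, against 18.8%). The windows are longer than the genes and were searched on both strands, so these shares are a description only. All 54 bound genes had the A box letters. Of the 14 genes without them, none was bound in the thresholded list and 2 had a pooled summit (14.3%, exact 95% interval 1.78 to 42.8%), K11H12.t1 and the tryptophan gene F49C5.t1. Of the 307 genes with both boxes 238 had a pooled summit (77.5%, 72.4 to 82.1%), and of the 29 lacking at least 1 box 11 had one (37.9%, 20.7 to 57.7%). A methionine family of 6 autosomal copies lacks the B box letters. Its members T15B12.t1, with signal 103, and Y22D7AL.t3, with signal 102 at a summit shared with Y22D7AL.t4, were 2 of the 3 bound genes without them. F14B4.t2 was the other. In the 101 bases centred on the summit, the B box letters occurred on either strand in 19 of 47 summits near autosomal tRNA genes (40.4%), 28 of 58 near X tRNA genes (48.3%) and 31 of 537 other nuclear summits (5.77%). The first 2 groups were picked for lying near tRNA genes, nearly all of which carry the B box. Their higher shares were given by that choice and are a description only. The 6-base words ACGCAG and GACGCA occurred in 4 and 1 of the 47, in 6 and 3 of the 58, and in 103 and 99 of the 537. No share over windows was counted for these words, and the difference between the groups was not tested.

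Genes of identical sequence differed in signal. The 336 genes have 137 distinct sequences, 86 of them single, and up to 29 identical copies in the nuclear genome. Of the 250 genes with an identical copy 203 had a pooled summit (81.2%, 75.8 to 85.8%), and of the 86 single-copy genes 46 (53.5%, 42.4 to 64.3%). Among single-copy genes with both boxes the share was 41 of 68 (60.3%, 47.7 to 72.0%). Of the 19 families with at least 6 autosomal copies, 17 had a bound member, none had all copies bound, and 6 had a pooled summit at every copy. The glycine family of C12C8.t6 had 5 of 18 autosomal copies bound and pooled signals between 25.4 and 151. Among 15 autosomal copies of the lysine gene F56F4.t2 there were 4 bound, with pooled signals between 36.7 and 184. For the 13 autosomal copies of the asparagine gene W06D4.t1 none was bound, and their highest pooled signal was 75.1. Reads within an identical gene body cannot be assigned to 1 copy, and how the authors placed them is not given in the sources used here. The median share of unique 31-base words in the gene windows was 89.9% at bound and 89.7% at unbound genes of the thresholded list, with lower quartiles of 83.4% and 86.5%. In the pooled list the medians were 89.7% at bound and 90.1% at unbound genes. The lower quartiles there differed more, at 88.2% and 73.2%, and the lowest values were 56.9% and 24.95%. The part of read placement in these differences was not tested.

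**Figure D5:**
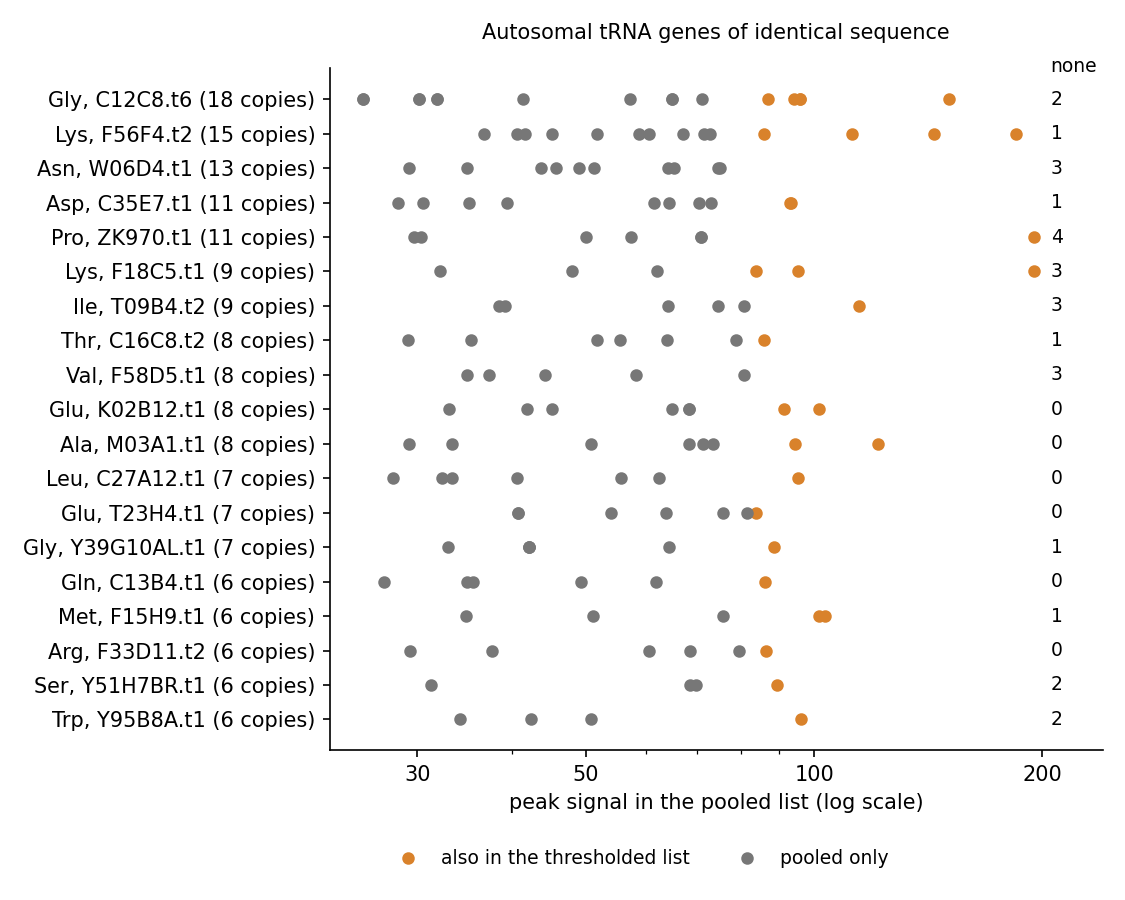
Authors' pooled peak signal (horizontal, log scale) of each autosomal copy in the 19 families of identical tRNA genes with at least 6 autosomal copies, each named by amino acid and first member. Orange points are copies also in the thresholded list, grey points copies in the pooled list only, and the column at the right counts copies with no pooled summit; genes sharing a summit coincide.

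The lysine family of T23F1.t1 shows how copies with the same gene body differ in their surroundings. It has 14 copies, 9 of them on autosomes, of which 3 were bound. The signal of T23F1.t1 came from the summit shared with the proline gene T23F1.t2. That summit lies downstream of T23F1.t1, 86 bp from its 5′ end. Beside T23F1.t1 at signal 195, F49C5.t4 in an intron of nimk-1 had 95.3 at a summit also within reach of the leucine gene F49C5.t3, with 40.5 in replicate 1 and 59.5 in replicate 2, and K04C2.t3 had 83.9, with 29.4 and 58.6. C09B9.t1 had a pooled signal of 62.0 and F18C5.t1 one of 48.0, both present in both replicates. ZK994.t2 had a pooled signal of 32.1 and no summit in replicate 1. ZK994.t1, W07G4.t1 and Y70C5A.t1 had no summit in any list. The GC content of the flanks was 36.8% at T23F1.t1, and 33.0%, 37.6% and 42.2% at these 3 genes. The windows of these 3 were at least 88.6% unique in 31-base words, against 79.4% for T23F1.t1. The bases upstream differ between copies, but those of ZK994.t1 and ZK994.t2 are nearly the same, although only ZK994.t2 had a pooled summit. Whether upstream bases go with the signal was not tested. As examples, the 45 bases upstream of 5 of the 9 autosomal copies are printed in lower case. The first 10 bases of the gene follow in capitals. The genes lie at chrV:15465086-15465158, chrII:12541688-12541760, chrIII:6887728-6887800, chrV:13027028-13027100 and chrV:16622059-16622131 in that order. The first is on the plus strand and the others are on the minus strand.
T23F1.t1: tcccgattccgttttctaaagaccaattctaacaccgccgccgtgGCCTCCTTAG
F49C5.t4: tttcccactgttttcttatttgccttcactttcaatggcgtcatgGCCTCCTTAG
K04C2.t3: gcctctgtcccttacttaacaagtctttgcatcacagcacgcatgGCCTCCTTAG
W07G4.t1: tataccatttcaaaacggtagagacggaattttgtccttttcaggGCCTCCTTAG
Y70C5A.t1: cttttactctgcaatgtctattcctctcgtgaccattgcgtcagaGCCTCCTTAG

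Single-base relatives of the families gave further examples, chosen after their values were seen. Positions are counted from 1 at the 5′ end of the gene. W09G10.t3 differs from the threonine family of C16C8.t2 only by A72C, its last base. The signal was 144 near W09G10.t3 and 85.8 near C16C8.t2, and both summits are shared with a neighbouring lysine gene. The first lies inside W09G10.t3 and within reach of W09G10.t2, and the second lies 111 bp upstream of C16C8.t2 and inside C16C8.t1, so the values are not those of the threonine genes alone. K12H4.t1 differs from the proline family of T23F1.t2 only by C55G, which removes a letter of the B box. Its pooled signal was 39.2 at rank 3970, from a summit 99 bp upstream of the gene, with 28.0 in replicate 1 and 15.9 in replicate 2. In that proline family itself 7 of 11 autosomal copies had a pooled summit, with signals between 29.7 and 195. The highest is that of T23F1.t2, whose summit is shared with the lysine gene T23F1.t1, and the next highest was 70.8. The value of K12H4.t1 thus lay within the range of copies that keep the base. K09C6.t1, the alanine gene without the A box letters, had no summit in any list, and neither had ZK970.t1 or R11G10.t1, proline copies that keep both boxes.

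The flanks of bound genes were slightly richer in GC. Over the 250 bp on each side, the median GC content was 40.5% at the 54 bound genes and 37.8% at the 282 unbound genes of the thresholded list. It was 39.1% and 37.8% with the strongest peaks of replicate 1, and 38.6% and 36.6% in the pooled list. The interquartile ranges of the thresholded comparison overlapped, at 38.1 to 43.1% and 35.0 to 40.4%. Inside the gene the medians were 59.3% and 58.3%. GC content can also move read recovery, and its part in the calls was not tested. By chromosome, 8 of 66 genes were bound on I, 11 of 57 on II, 14 of 64 on III, 11 of 71 on IV and 10 of 78 on V. The strongest peaks of replicate 1 reached 4 genes on I and 5 on V, and those of replicate 2 reached 13 and 14, so no order of the chromosomes is read from these counts. The pooled shares lay between 67.9% on V and 78.1% on III. In the middle of the chromosomes, by length divided into 3 equal parts, 18 of 110 genes were bound (16.4%), and in the outer parts 36 of 226 (15.9%).

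Autosomal genes were bound less often than those on X in the thresholded list, and the difference did not hold in every list. Of the autosomal genes 54 of 336 were bound, and of the X genes 64 of 276 (23.2%), with an odds ratio of 0.634 and p = 0.0305 by a two-sided Fisher's exact test. By the same exact test, the strongest 660 peaks of replicate 1 gave 44 and 53 genes (odds ratio 0.634, p = 0.0452), and those of replicate 2 gave 63 and 61 (odds ratio 0.813, p = 0.314). With the 330 strongest peaks the counts were 10 of 336 and 24 of 276 (odds ratio 0.322, exact p = 0.0024). In the pooled list 249 of 336 (74.1%) and 207 of 276 were bound, an odds ratio of 0.954 with exact p = 0.852. Counted as loci, which share summits less often, 46 of 281 autosomal loci (16.4%) and 56 of 195 X loci (28.7%) were bound (odds ratio 0.486, exact p = 0.00146). The X loci held more genes each, with 276 genes in 195 loci against 336 in 281. A locus with more genes has more places where a summit counts, and the part of locus size was not tested. The tests are unadjusted, treat genes or loci as independent, and the comparison on the thresholded list was known from earlier results. In 17 families of identical genes with at least 6 autosomal copies and at least 1 copy on X, 28 of 156 autosomal copies (17.9%) and 36 of 127 X copies (28.3%) were bound, and 129 (82.7%) and 108 (85.0%) had a pooled summit. The bound share was lower on the autosomes in 11 of these families and higher in 5.

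The promoters of genes encoding the machinery of tRNA synthesis and processing were read in the same lists. Of 45 symbols listed for RNA polymerase III, its factors and tRNA processing, 36 were found in the annotation. Those not found were rpc-3 to rpc-10 and gtf-3A, so most of the listed rpc symbols, for polymerase III subunits, were not scored. A thresholded summit stood in 1 of the 36 promoter windows (2.78%), against 2.79% over all nuclear protein-coding genes. The gene was rpac-19, which encodes a subunit shared by RNA polymerases I and III, with signal 105, 32.8 in replicate 1 and 63.7 in replicate 2. A pooled summit stood in 15 of the 36 windows (41.7%), against 25.4% of all protein-coding genes, a difference that was not tested. Among these were tftc-1 (signal 31.2) and tftc-3 (27.0), which encode TFIIIC subunits, and mafr-1 (41.1), the worm homologue of the polymerase III repressor MAF1.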

How the data were processed

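Per the labels, the 2 libraries are biological replicates of 1 group. The peak lists were deposited without a header, on ce10 and ce11, and only ce11 (WBcel235) was used. Peak signal is the authors' value in the deposited lists. How reads were aligned, peaks called and thresholded, and how deep the libraries were, is not given in the sources used here. Genes came from Ensembl release 115, amino acids and sequence from RefSeq WBcel235, where all 336 genes stood at the same position. A summit within 250 bp called a gene bound. Shares carry exact Clopper-Pearson 95% intervals. Autosomes and X were compared with two-sided Fisher's exact tests at 0.05. The members, lists, classes and named genes were chosen with earlier results of these data known. Named are the 10 highest signals, the highest 3 per class, the highest per chromosome and per amino acid with 3 bound genes, the clusters with most bound genes, and the genes nearest the threshold. Gene windows planted with summits in simulated lists were recovered in 20 of 20 sets. The planted genes had no other tRNA gene within 5000 bp and the lists held no other peaks. Shared summits were therefore not tried. Mitochondrial genes were counted apart. The tools were Python 3.11.15 with scipy 1.17.1, pandas 2.3.3, matplotlib 3.10.9 and numpy 2.4.6.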

Additional observations from a re-analysis of the deposited data

Results flagged for a closer look

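Outside the nuclear genome, 10 of the 22 mitochondrial tRNA genes lay within 250 bp of a thresholded summit, 12 of 22 near a summit of the full replicate 1 list and 5 of 22 near one of the full replicate 2 list. They were flagged as genes left out of the comparisons. Of the 660 thresholded peaks 642 were nuclear, and no share over mitochondrial windows was counted. Mitochondrial tRNA genes are packed into a small circular genome, and no control library was used here, so these summits cannot be told apart from background.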

How the results depend on the processing

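The 54 bound genes became 10 with the 330 strongest peaks, 125 with a pooled list cut at 2 times the thresholded size, called the looser list here, 20 when the summit had to lie inside the gene, and 27 when both replicates' strongest 660 peaks were required. Taking 1 replicate alone gave between 44 and 63. The 47 distinct summits became 8 with the 330 strongest and 115 with the looser list, and 40 to 58 with 1 replicate, settings added after seeing the data. The intronic minus intergenic share, -2.56 percentage points, reversed to 1.79 with the looser list and lay between -5.91 and -0.807 with 1 replicate. The promoter difference of 6.94 points was 3.19 with the 330 strongest peaks, -3.44 with the looser list, 4.62 within 100 bp, 8.84 when promoters ended 500 bp upstream and 100 bp downstream, and 3.21 to 3.76 with 1 replicate. The cluster difference of 6.75 points was 2.82 with the 330 strongest, 1.86 with neighbours within 5000 bp, and 1.095 to 5.75 with 1 replicate. The odds ratio against X, 0.634, was 0.322 with the 330 strongest peaks (exact p = 0.0024), 0.793 with the looser list (exact p = 0.184) and 0.634 to 0.813 with 1 replicate, losing the threshold without replicate 1 (exact p = 0.314). The cause of these changes was not tested. Of the 22 named genes, 10 kept their call when the summit had to lie inside the gene, 13 with the 330 strongest peaks and 14 without replicate 2. The call was kept by 15 when both replicates were required, 18 with each summit given to its nearest gene, 19 with the looser list, and 21 or 22 under the other settings. The 22 include F32B4.t1, Y104H12A.t1 and K06A4.t1, which had no thresholded summit. For them a kept call means that they stayed unbound. Most named genes were picked by signal. Their calls with the 330 strongest peaks and with the looser list follow from their pooled ranks and are a description only. No paired analysis was possible because there is a single group. Read depth is unknown, and the number of peaks kept sets most counts.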

Other observations

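The genome also carries 180 autosomal pseudogenes named as tRNA genes, with a median length of 73 bp. Of these, 144 kept the letters of both the A box and the B box. Only 1 of the 180, D1046.t1, lay within 250 bp of a thresholded summit, and 19 near a pooled summit (10.6%, exact 95% interval 6.48 to 15.99%), against 249 of 336 annotated autosomal tRNA genes (74.1%) and 8.03% of autosomal windows. The full replicate 1 list reached 20 of the 180 and the full replicate 2 list 26. Among the 144 with both boxes 17 had a pooled summit (11.8%), and among the other 36 there were 2 (5.56%). Leaving out the pseudogenes within 1000 bp of a tRNA gene, the count was 18 of 175 (10.3%). The median share of unique 31-base words in their windows was 99.3%. This comparison was chosen after seeing the data and was not tested.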
